A study of Rattus norvegicus with 2 samples.

Results

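Nitric oxide synthases and arginases draw on the same amino acid, L-arginine. This account follows the 5 genes on the membranes whose deposited names contain "nitric oxide synthase" or "arginase", of 1185 genes in all. They are inducible Nos2 (R052), endothelial Nos3 (RG249), neuronal Nos1 (RG370), liver arginase Arg1 (RG055) and Arg2 (RG501). RefSeq's rat gene table (assembly GRCr8) holds all 5 symbols. The RNA came from dissociated carotid bodies of Sprague Dawley rats, 16 carotid bodies to a culture, grown in medium with horse and fetal bovine serum and nerve growth factor. One group was kept for 7 days in normoxia (21% oxygen). The other spent 7 days in chronic hypoxia (1% oxygen) in a sealed chamber whose nitrogen and carbon dioxide mixture was renewed daily. Each condition is represented by 3 nylon membranes, numbered 1 to 3, and the sources used here do not tie each membrane to a culture of its own. The spread between membranes, on which every p-value below rests, may therefore be technical.

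Nitric oxide synthases oxidise arginine to citrulline and nitric oxide, while arginases cleave it to ornithine and urea. Nos1 and Nos3 are calcium-dependent enzymes best known from neurons and endothelium, and Nos2 is made on demand, typically after inflammatory stimuli. Arg1 is the cytosolic enzyme of the urea cycle and Arg2 its mitochondrial relative outside the liver. In the carotid body, which senses arterial oxygen, nitric oxide is known as a damper of chemosensory discharge.

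Brightness is given as the deposited intensity, a linear scanner value with background included and a ceiling of 65535. A spot counted as above background where its intensity passed a threshold set for each membrane, the median plus 3 times the root mean square distance of the lower values from it. The threshold lay between 3261 and 6406 on 5 membranes. On chronic hypoxia membrane 3 the lowest intensity was 14591 and the threshold was 19280, so raw values of that membrane cannot be set beside those of the others. By this measure 152 genes were above background on at least 3 of 6 membranes and 867 on none. Rank correlations between membranes over all genes lay between 0.267 and 0.580, except 0.772 for chronic hypoxia membranes 1 and 3. For comparisons the intensities were background corrected, put on the log2 scale and quantile normalized. Different spots hold different probes, so brightness ranks and ratios between spots describe readings and do not order amounts of RNA.

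**Figure D1:**
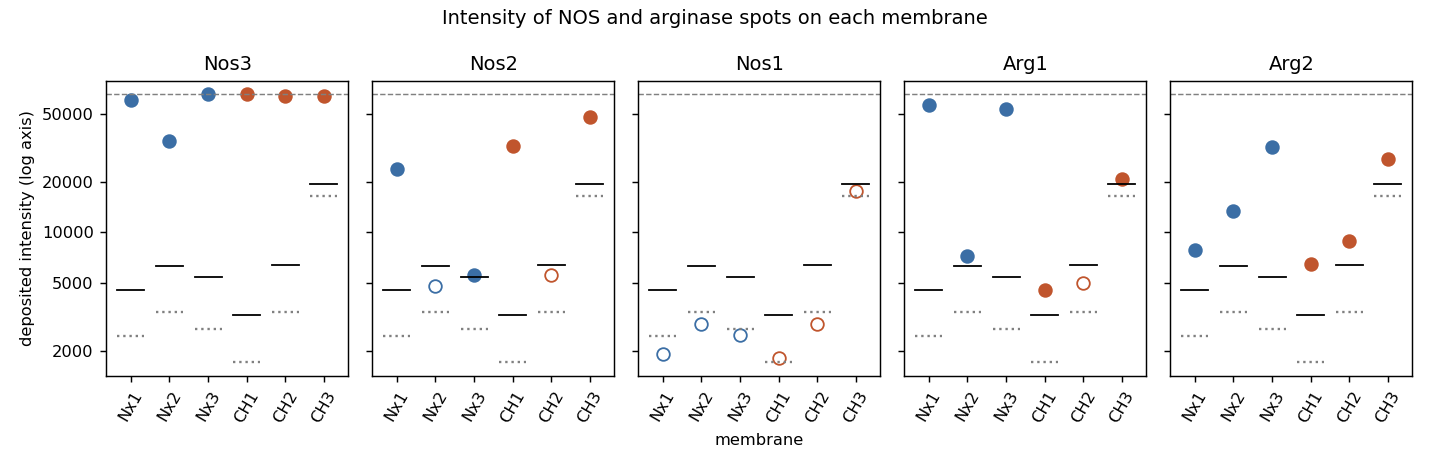
Deposited intensity (log axis) of the 5 genes on normoxia membranes 1 to 3 (Nx, blue) and chronic hypoxia membranes 1 to 3 (CH, orange). Short black lines mark each membrane's background threshold, dotted lines its median and the dashed line the ceiling of 65535, and open circles are spots not above background. Arg1 stands far above the threshold on normoxia membranes 1 and 3 and close to it elsewhere, while Nos3 is near the ceiling on 4 membranes.

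Arg1 was brightest in normoxia and close to background in chronic hypoxia. Its intensity was 56381, 7227 and 53590 on normoxia membranes 1 to 3, or 23.2, 2.12 and 20.0 times the membrane median. On chronic hypoxia membranes 1 to 3 it was 4551, 5057 and 20719, or 2.67 and 1.48 times the median on the first 2. The high floor of chronic hypoxia membrane 3 compresses such folds, and none is given there. Among the 1185 spots Arg1 held brightness rank 11, 104 and 29 in normoxia and 117, 164.5 and 145 in chronic hypoxia. By rank the groups did not overlap, but normoxia membrane 2 lay near the chronic hypoxia membranes and far from the other normoxia membranes. By fold over the median they overlapped, with 2.12 on normoxia membrane 2 and 2.67 on chronic hypoxia membrane 1. Every normoxia membrane showed Arg1 above background, as did chronic hypoxia membranes 1 and 3.

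After normalization Arg1 averaged 14.29 ± 1.45 (SD, n = 3) on the log2 scale in normoxia, against 12.20 ± 0.25 (SD, n = 3) in chronic hypoxia. The log2 difference was -2.09 with an SE of 0.74 and a 95% interval from -3.72 to -0.46, which is 4.25-fold lower in chronic hypoxia. It did not pass (limma p = 0.0169, adjusted p = 0.645), and the exact permutation p was 0.1, the smallest that 3 against 3 membranes allow. None of the 5 genes passed an adjusted p under 0.05 in limma, and neither did any other of the 1038 genes tested (0%). An unadjusted p under 0.05 was reached by 75 genes (7.23%), 43 of them lower in chronic hypoxia (4.14%). Groups that did not overlap, lower in chronic hypoxia, were seen for 77 of the 1038 genes (7.42%) and for 9 of the 152 that had clear signal, above background on 3 or more membranes (5.92%). In the other direction these numbers were 67 of 1038 (6.45%) and 10 of 152 (6.58%). Of these 152 genes Arg1 had the most negative difference, and 2 (1.32%) were at least 4-fold lower. Among all 1038 genes tested, which include genes without clear signal, more negative differences were seen, such as -3.52. In bulk RNA of this kind, fewer cells of a type and less RNA per cell cannot be told apart.

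Nos2 lay on the other side, with higher values on chronic hypoxia membranes 1 and 3. Normoxia membranes 1 to 3 gave it an intensity of 23878, 4854 and 5576, and chronic hypoxia membranes 1 to 3 gave 32554, 5585 and 48247. Membranes 1 and 3 of each condition showed Nos2 above background. On normoxia membrane 3 it exceeded the threshold of 5458 by little. The brightness rank of Nos2 was 43, 258 and 203 in normoxia and 26, 107 and 22 in chronic hypoxia, so that the groups overlapped. In normalized values Nos2 differed by 1.77 with an SE of 0.88 and a 95% interval from -0.17 to 3.71 (limma adjusted p = 0.645, exact permutation p = 0.2). Of the 152 genes with clear signal, Nos2 had the third most positive difference. Leaving out 1 membrane in turn moved this difference between 1.33 and 2.57. With chronic hypoxia membranes 1 and 3, the best correlated membranes (0.772), counted as 1, it was 1.38.

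**Figure D2:**
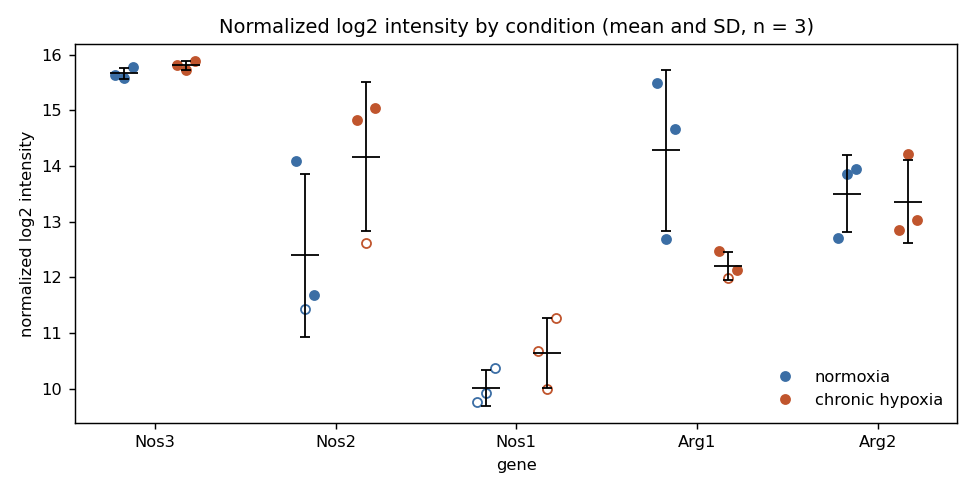
Normalized log2 intensity of the 5 genes in normoxia (blue) and chronic hypoxia (orange), 1 point per membrane, with the mean and SD over 3 membranes as black bars. Open circles are spots not above background. Arg1 is the gene whose groups do not overlap, and Nos2 varies over more than 2 log2 units within each group.

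Nos3 was bright on every membrane and too near the ceiling for a change to be measured. Its intensity was 61083, 34690 and 65535 in normoxia and 65499, 64139 and 64448 in chronic hypoxia. It was within 5% of the ceiling on normoxia membrane 3 and on all 3 chronic hypoxia membranes. Its brightness rank was 8, 9 and 3.5 in normoxia and 2, 5 and 1 in chronic hypoxia. The lowest Nos3 value, on normoxia membrane 2, came from a membrane whose brightest spot was 58956. The normalized difference was 0.14 with a 95% interval from -1.01 to 1.28 (limma adjusted p = 0.961), and the ceiling limits how large a rise these membranes could show.

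Nos1, the neuronal isoform, was above background on 0 of 6 membranes. Its intensity was 1908, 2887 and 2478 in normoxia and 1807, 2891 and 17631 in chronic hypoxia, between 0.786 and 1.06 times the membrane median on the 5 membranes other than chronic hypoxia 3. No fold is given for it, and at this signal a transcript of low abundance was not detectable.

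Arg2 was above background on all 6 membranes. Its intensity was 7926, 13455 and 31908 in normoxia and 6526, 8916 and 27171 in chronic hypoxia. On the normalized log2 scale Arg2 averaged 13.50 ± 0.69 (SD, n = 3) in normoxia, next to 13.36 ± 0.74 (SD, n = 3) in chronic hypoxia, and the groups overlapped. The difference of -0.14 had an SE of 0.63 and a 95% interval from -1.54 to 1.25 (limma adjusted p = 0.970). It took the opposite sign when normoxia membrane 2 (0.04), normoxia membrane 3 (0.08), chronic hypoxia membrane 1 (0.09) or chronic hypoxia membrane 3 (0.04) was left out.

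The difference between 2 spots on the same membrane describes how a pair of arginine-using enzymes shifted between conditions. Each mean shift equals the difference of the first gene less that of the second, so it restates the values above. Pairs that share a gene are not separate observations. For Arg1 minus Nos2 the normalized log2 difference was 1.42, 1.25 and 2.99 on normoxia membranes 1 to 3. On chronic hypoxia membranes 1 to 3 it was -2.36, -0.64 and -2.92. The value was thus above 0 on all 3 normoxia membranes and below 0 on all 3 chronic hypoxia membranes, which compares readings of the spots, not amounts of RNA. The share of other pairs of spots whose groups do not overlap was not counted. The mean shifted by -3.86, from 1.89 ± 0.96 (SD, n = 3) to -1.97 ± 1.19 (SD, n = 3). Its exact permutation p was 0.1, or 0.3 after Benjamini-Hochberg adjustment over the 6 pairs. The shift is the difference of Arg1 (-2.09) less that of Nos2 (1.77), which lie at opposite ends of the 152 genes with clear signal. On chronic hypoxia membrane 2 neither spot was above background, and on normoxia membrane 2 Nos2 was not.

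For Arg1 minus Nos3 the values were -0.14, -2.90 and -1.11 in normoxia and -3.34, -3.74 and -3.75 in chronic hypoxia. These groups did not overlap either, with a shift of -2.23 (exact permutation p = 0.1, adjusted 0.3), in which the ceiling of Nos3 makes the size inexact. Against Arg2, the other arginase, Arg1 shifted by -1.95 (exact permutation p = 0.3, adjusted 0.36). Its Arg1 minus Arg2 values overlapped, at 2.80, -1.17 and 0.72 in normoxia and -0.37, -2.23 and -0.90 in chronic hypoxia. The remaining pairs overlapped as well. Nos2 minus Nos3 shifted by 1.63 (exact permutation p = 0.2, adjusted 0.3), Arg2 minus Nos2 by -1.91 (exact permutation p = 0.2, adjusted 0.3) and Arg2 minus Nos3 by -0.28 (exact permutation p = 0.9, adjusted 0.9). None of the 6 pairs passed, and with 3 against 3 membranes none could.

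**Figure D3:**
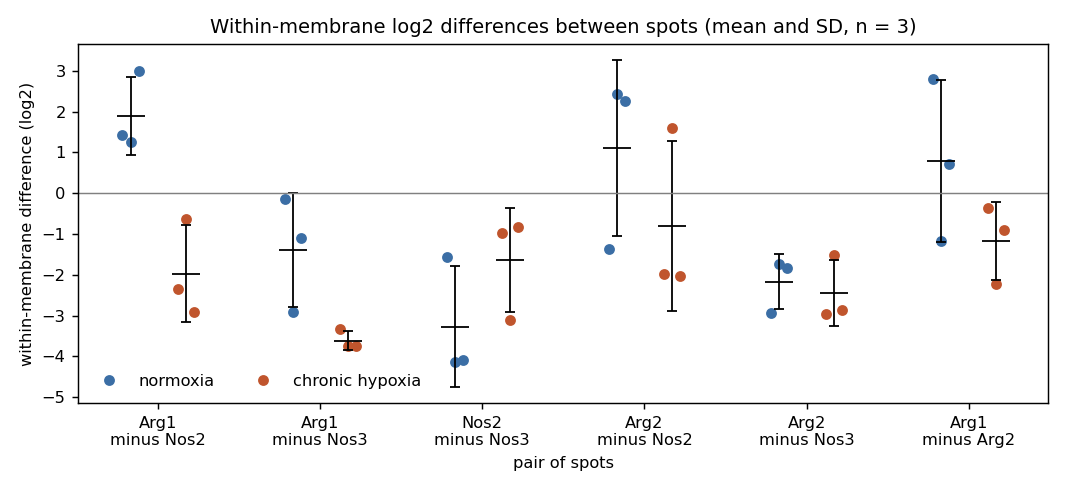
Normalized log2 value of the first spot minus that of the second on the same membrane, for 6 pairs, in normoxia (blue) and chronic hypoxia (orange), with the mean and SD over 3 membranes. Arg1 minus Nos2 is above 0 on the 3 normoxia membranes and below 0 on the 3 chronic hypoxia membranes, and Arg1 minus Nos3 also has groups that do not overlap.

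The low deposited values of a membrane fall on a regular step, and its size splits the membranes. Normoxia membrane 1 had a step of 51.7 and chronic hypoxia membrane 1 one of 51.6. A step of about 103 was shared by membranes 2 and 3 of normoxia with membrane 2 of chronic hypoxia, and chronic hypoxia membrane 3 had neither. Within the first of these classes Arg1 differed by -3.02 between conditions and Nos2 by 0.75. Within the second Arg1 differed by -1.69 and Nos2 by 1.07, and there both genes were at background on chronic hypoxia membrane 2. Arg1 minus Nos2 shifted by -3.78 within the first class and by -2.76 within the second. The first class compares 1 membrane with 1, the second 2 normoxia membranes with 1, and chronic hypoxia membrane 3 has no counterpart.

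Signal on these membranes was concentrated in a band that holds 3 of the 5 genes. Each of the sections A to F has numbered lines of 14 spots, and Arg1 (C09a), Arg2 (C09f) and Nos3 (C10n) lie in lines 9 and 10 of section C. In lines 9 to 11 of section C, 40 of 42 spots (95.2%) were above background on at least 3 membranes, against 112 of the other 1143 spots (9.80%). In line 10 alone, 13 of 14 spots were above background on all 6 membranes. Nos2 (A08f) lies in a line with 5 of 14 spots above background on at least 3 membranes, and Nos1 (F06h) in a line with 0 of 14. The part of this position in the brightness of Nos3, Arg1 and Arg2 was not tested.

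**Figure D4:**
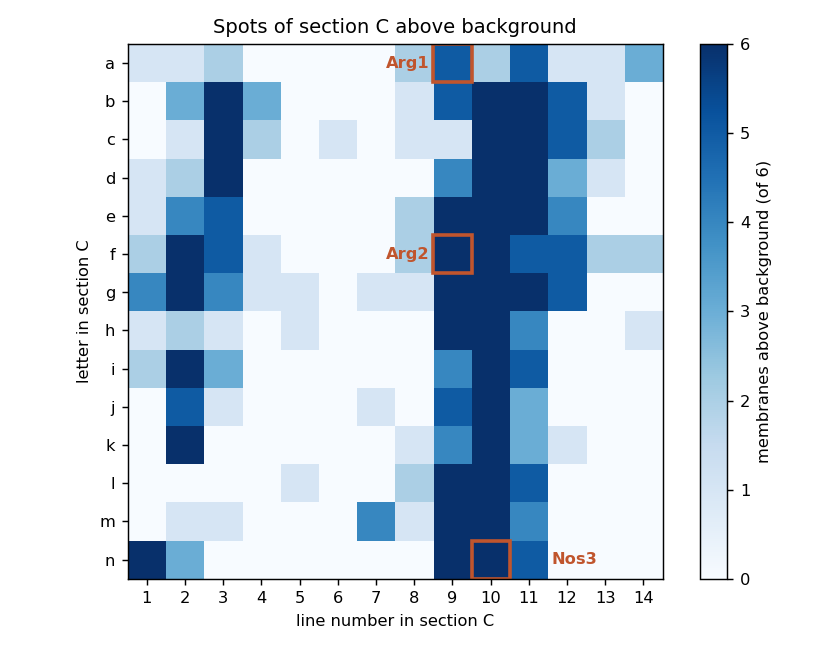
Number of membranes (0 to 6, colour) on which each spot of section C was above background, by line number and letter. Lines 9 to 11 form a nearly filled band, in which Arg1, Arg2 and Nos3 are outlined.

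The spots next to each gene differ in how closely they follow it. Arg2 lies between glutathione synthetase (Gss), which completes glutathione, and a dopa/tyrosine sulfotransferase. The Gss spot had 8127, 11794 and 29829 in normoxia and 6526, 8582 and 25547 in chronic hypoxia, so that Arg2 was between 0.975 and 1.14 times Gss on every membrane, in readings that include background. Arg2 therefore carried almost the same reading as its neighbour on all 6 membranes. The sulfotransferase was also above background on all 6, at 0.721 to 1.42 in the ratio of Arg2 to it.

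Arg1 did not follow its neighbour in the line, the catalytic subunit of glutamate-cysteine ligase (Gclc), which starts glutathione synthesis. Gclc had 12389, 7542 and 15943 in normoxia and 23875, 4954 and 42851 in chronic hypoxia, and the ratio of Arg1 to it ran from 0.191 to 4.55. Relative to the mean of its 5 adjacent spots, Arg1 stood at 3.45, -0.13 and 2.03 on the log2 scale in normoxia and at 0.11, 0.10 and 0.38 in chronic hypoxia. The difference between conditions was then -1.58 (exact permutation p = 0.4), since normoxia membrane 2 fell below the chronic hypoxia membranes. The adjacent spots themselves differed by -0.50.

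Nos2 neighbours prothymosin alpha (Ptma), an acidic nuclear protein of growing cells, which had 28137, 5797 and 15631 in normoxia and 32623, 6206 and 32075 in chronic hypoxia. Both spots were above background on the same 4 membranes, but on normoxia membrane 3 Ptma was well above the threshold and Nos2 barely. The spot on its other side, cytosolic phospholipase A2, was above background on 1 membrane, chronic hypoxia 3. Relative to its 8 adjacent spots Nos2 differed by 1.54 between conditions (exact permutation p = 0.2). The aldehyde reductase spot beside Nos3 had 42378, 26245 and 64773 in normoxia and 52207, 49257 and 62132 in chronic hypoxia, and like Nos3 it was above background on all 6 membranes. Relative to its 5 adjacent spots Nos3 differed by -0.26 (exact permutation p = 0.6), the opposite sign to its own difference, with Nos3 near the ceiling on 4 membranes.

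Likeness of pattern was measured as the root mean square difference between log2 profiles over the 6 membranes, each centred on its own mean, against the other 151 genes above background on at least 3 membranes. The genes most like Arg1 were the endothelin converting enzyme (0.64), which activates endothelin peptides, and the proteasome components C3 (0.81) and C2 (0.91), against a median of 1.54. Their spots adjoin one another on the membrane, at F08l, F09l and F09k. These genes differed by -1.73, -0.94 and -0.59 between conditions, and the converting enzyme was near the ceiling on 2 membranes. Those most like Nos2 were the hepatocyte growth factor receptor c-met (0.38), the chemoattractant receptor CMKLR1 (0.52) and HSP90-beta (0.70), against a median of 1.50. They differed by 1.93, 1.37 and 0.92. Both sets were picked by their profile over the same membranes, so differences of the same sign as Arg1 or Nos2 follow from the choice.

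Nos3 was closest to 11-beta-hydroxysteroid dehydrogenase 2 (0.09), acetylcholinesterase (0.10) and short chain acyl-CoA dehydrogenase (0.15), all in lines 9 and 10 of section C and near the ceiling on 4, 5 and 2 membranes. Arg2 was closest to its neighbour Gss (0.09), then to carboxypeptidase E (0.21) and interleukin 13 (0.27). The profile of Nos3 is thus flat like that of other spots at the ceiling, and that of Arg2 is nearly that of the spot beside it.

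Few genes around the shared substrate had clear signal, as was so of the genes at large. The list held arginine carriers and polyamine synthesis, partners of the synthases and effectors of nitric oxide, 10 spots in all, of which 6 (60%) were above background on no membrane and 1 on at least 3. Over all 1185 genes these shares were 73.2% and 12.8%. Of 8 tested members 0 passed in either direction (limma, against 0% of all genes tested), with 4 higher and 4 lower. Their median difference was -0.15, beside 0.03 over all 1038 genes tested. The arginine carriers CAT-1 (Slc7a1) and CAT-3 (Slc7a3) were above background on 0 of 6 membranes. Hsp90ab1, the chaperone HSP90-beta that binds nitric oxide synthases, was the single member above background on at least 3 membranes. Its intensity was 10522, 6612 and 5266 in normoxia and 15200, 4751 and 38667 in chronic hypoxia, with overlapping groups and a difference of 0.92 (SE 0.76, limma adjusted p = 0.777). Calmodulin, which the constitutive synthases need for activity, was above background on 2 normoxia membranes and on 0 chronic hypoxia membranes. Its difference was -0.80 (SE 0.61, limma adjusted p = 0.764). Akt2, named here after its values were seen, was at 65535, 3097 and 9197 in normoxia and at 980, 2685 and 15319 in chronic hypoxia, so that its brightest value came from 1 membrane.

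Markers of the cell types that the cultures could hold were read in the same way. Of 7 endothelial genes, Nos3 and Edn1 were above background on at least 3 membranes, Ace on 2, and Kdr, Flt1, Vcam1 and Sele on none. Nos3 makes up most of the endothelial signal. Summed over the other 6, the fold over the membrane median came to 6.53, 5.99 and 10.8 in normoxia. Membranes 1 and 2 of chronic hypoxia gave 8.97 and 5.42. Sums on chronic hypoxia membrane 3 are compressed by its floor and left out here. The 5 immune genes, Ptprc, Cd4, Cd8, Tnf and Il1b, were above background on 0 of 6 membranes, with sums of 4.11 to 4.91 in normoxia and of 5.03 and 5.27 in chronic hypoxia. A spot at the membrane median counts 1 in such a sum, so sums near the number of genes are what background gives. The 3 hepatocyte genes Apoa1, Fgb and Igfbp1 were likewise at background, with sums of 1.92 to 2.66, and of 2.36 and 2.81. Mmp2, a matrix protease of fibroblasts, was above background on 4 membranes and differed by -0.52 (SE 0.60). Of 8 glomus cell genes, all 6 membranes showed Dbh, Slc6a3, Ache and Cpe above background, 3 showed Slc18a3, 1 showed Slc18a1, and none showed Ddc or Slc18a2. Their sums were 38.5 to 96.2 in normoxia and 112 and 46.4 in chronic hypoxia. Ache was near the ceiling on 5 membranes, where its fold follows the membrane median, so these sums do not measure an amount of glomus cells. Dbh and Ache lie in line 10 of section C. The part of these markers in the differences of Arg1 and Nos2 was not tested.

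The authors also averaged the membranes of each condition into 1 normalized value per gene. In the authors' deposited table Arg1 had 28690 for normoxia and 7455 for chronic hypoxia, 3.85-fold lower and in the same direction as the membranes. Arg2 in the authors' deposited table was 15387 in normoxia and 0 in chronic hypoxia, although its spot was above background on all 3 chronic hypoxia membranes. Nos2 in the authors' deposited table was 7134 and 15197. Nos1 in the authors' deposited table was 0 in normoxia and 1330 in chronic hypoxia, although its spot was above background on 0 of 6 membranes. Nos3 was 48122 and 65588 in the authors' deposited table, the second value lying above the scanner ceiling. The table comes with no spread between membranes and gives no test.

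**Figure D5:**
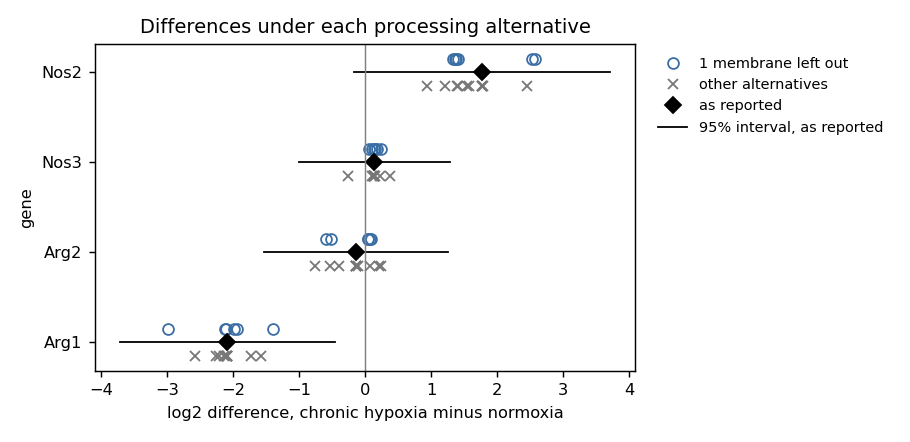
Log2 difference between chronic hypoxia and normoxia for 4 genes as reported (diamond, with its 95% interval as a line), with 1 membrane left out (circles) and under the other processing alternatives (crosses). Arg1 stays below 0 and Nos2 above 0 under every alternative drawn, while Arg2 falls on both sides and Nos3 is below 0 in 1 alternative, relative to neighbouring spots. Crosses for the changed filters and the replicate block lie at the reported value by construction.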

How the data were processed

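Each membrane file holds deposited intensity values, 1 per gene and per membrane, which the authors quantified with AtlasImage V2.0 from phosphorimager scans of Atlas Rat 1.2 membranes, per the labels' protocols. They include background and are not scaled between membranes. The authors' table of averaged and normalized intensity per condition has a median of 0 in both columns. Over its 203 and 253 genes above 0, its log2 values correlated with the membranes' mean above background at r = 0.952 (normoxia) and 0.668 (chronic hypoxia), across genes. It is linear and not centred, and the step that removed its background is not stated here.

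From the membrane files, normexp with an offset of 50, log2 and quantile normalization were applied with limma 3.58.1 in R 4.3.3. The 1038 genes brighter than the 25th percentile on 3 or more membranes were fitted with lmFit and eBayes on the condition alone. P-values were adjusted over them by Benjamini-Hochberg, and the code was tested on simulated data. Two-sided exact permutation tests used the 20 assignments of the membranes (Python 3.11.15, numpy 2.4.6, pandas 2.3.3, scipy 1.17.1, matplotlib 3.10.9). The number of membranes, 3 per condition, limits the precision of every value.

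The members, lists and tests were chosen with earlier results of these data known. Arg2 was found by the rule on deposited names after the files were read. The rule for named genes takes the 5 members, list members and spots like a member with signal above background on 3 or more membranes, and neighbouring spots. Other genes named are counted members of their lists. Alternatives covered normalization, background correction, the filter, blocks, weights and each membrane left out. Coordinates are left out, since no genome build goes with the membranes. Arg2 and its pairs, values relative to neighbouring spots, and chronic hypoxia membranes 1 and 3 counted as 1 were added after seeing the data. One marker list is not reported here.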

Additional observations from a re-analysis of the deposited data

How the results depend on the processing

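Arg1 kept its negative and Nos2 its positive difference under all 17 alternatives run, from -2.99 to -1.40 and from 0.93 to 2.57. Neither passed under any, with limma adjusted p from 0.185 to 0.876 for Arg1 and from 0.185 to 0.877 for Nos2. Values relative to neighbouring spots had an exact permutation p instead, 0.4 for Arg1 and 0.2 for Nos2. Among the alternatives, the changed filters and the replicate block could alter only the p-value of a gene, not its difference. With 1 membrane left out the ranges were -2.99 to -1.40 for Arg1, 1.33 to 2.57 for Nos2, 0.06 to 0.23 for Nos3 and -0.594 to 0.091 for Arg2. Arg2 turned positive with the value step as a block (0.24), with chronic hypoxia membranes 1 and 3 counted as 1 (0.072) and relative to neighbouring spots (0.22). Nos3 turned negative relative to neighbouring spots (-0.26). The cause was not tested.

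Among the pairs, the shift of Arg1 minus Nos2 lay between -4.56 and -3.14 and that of Arg1 minus Nos3 between -3.04 and -1.54. Arg2 minus Nos3 turned positive within value steps (0.12), and the other 5 pairs kept their direction, which the replicate block could not change. Arg1 minus Arg2 shifted by -0.88 without normoxia membrane 1 and by -3.03 without normoxia membrane 2. With 1 membrane left out, Arg2 minus Nos3 ran from -0.77 to -0.01.

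At 5 spreads instead of 3, Arg1 was above background on 3 membranes instead of 5, and Nos2 on 3 instead of 4. At 2 spreads Nos2 was above background on 5 membranes. No alternative called a gene (0 of those tested in each). Genes with an unadjusted p under 0.05 numbered 75 as reported, 146 with array weights, 46 without normoxia membrane 2, 44 without normoxia membrane 3, 42 without chronic hypoxia membrane 3, 46 with chronic hypoxia membranes 1 and 3 as 1, and 10 of the 152 genes with clear signal, where fewer genes were tested. Without normalization the median of all genes tested shifted to -0.17, and Arg1 (-2.58) and Nos2 (1.21) are then to be read relative to it.

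Deviations of same-numbered membranes correlated weakly, at 0.09, 0.11 and 0.02, which does not settle whether the numbers pair the conditions. Normoxia membranes 1 and 2 correlated best with their own number, and normoxia membrane 3 with chronic hypoxia membrane 1 (0.03). Each number holds a membrane of either condition, so a replicate block by number cannot change a difference. Arg1 (-2.09), Nos2 (1.77), Nos3 (0.14) and Arg2 (-0.14) then had limma adjusted p of 0.590, 0.590, 0.965 and 0.965. With this block 83 genes had an unadjusted p under 0.05. Signal near background limits Nos1, Nos2 and Arg1, and the ceiling limits Nos3.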

Other observations

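Line 10 of section C, where Nos3 lies, holds enzymes of unlike pathways that were almost all bright. Of its 14 spots 13 were above background on all 6 membranes and 6 came within 5% of the ceiling on at least 1 membrane. Beside Nos3 these were carbonic anhydrases 4 and 5, 11-beta-hydroxysteroid dehydrogenase 2, acetylcholinesterase and an aldehyde reductase. The line also holds uricase, a purine-degrading enzyme. Calmodulin, at its first position, was the spot not above background on all 6, with signal on 2. In chronic hypoxia 10 of the 14 spots were higher and 4 lower, with a median difference of 0.20. Why this line is bright was not tested.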
